A study of Arabidopsis thaliana with 6 samples.

Results

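The genes described here encode the nuclear part of the machinery that captures light and turns it into chemical energy in chloroplasts. They are 47 loci of Arabidopsis thaliana, of 28775 in the count table, chosen by name: the antenna genes LHCA1 to LHCA6 and LHCB1 to LHCB6, the nuclear-encoded subunits of photosystem I (PSA) and photosystem II (PSB), the Rieske protein, plastocyanin and 2 subunits of the plastid ATP synthase. All 47 had counts in all 6 libraries and all 47 passed the filter on low counts. Their RNA was counted by RNA-seq (Illumina MiSeq) in apices labelled as shoot apical or inflorescence meristem, from plants 2 weeks past bolting that were kept at 21 °C and 16 h of light a day. In 3 dexamethasone samples (columns Dx4, Dx5 and Dx6) this synthetic glucocorticoid had been applied so that AP2m3 could be expressed, and tissue was taken after 6 to 8 h, once the visible flower primordia had been cut away. In 3 mock samples (columns CT1, CT2 and CT3) the apices had the mock treatment and the same handling. AP2m3 is a variant of the floral transcription factor APETALA2 (AP2) whose transcript resists miR172, the microRNA that normally limits it. The promoter and construct behind AP2m3, the genetic background, whether the mock plants carried it, and whether plants were pooled for a sample could not be read from the labels. The labels hold no group given dexamethasone without AP2m3, so effects of the hormone and of AP2m3 cannot be told apart. Nothing says that the samples of a group were separate plants or pools, so a p-value here reflects the spread between samples, possibly only a technical one.

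Photosystem II splits water and photosystem I reduces ferredoxin. The cytochrome b6f complex, with its Rieske protein, and the mobile copper protein plastocyanin carry electrons from one to the other, and the ATP synthase uses the resulting proton gradient. Each photosystem is surrounded by chlorophyll-binding antenna proteins, LHCA around photosystem I and LHCB around photosystem II, which are among the most abundant proteins of green cells. The reaction centre proteins themselves are made in the chloroplast, whereas the antenna and many small subunits are made from nuclear genes. Transcription of these nuclear genes is known to respond to light, sugar, the circadian clock and the GARP transcription factors GLK1 and GLK2, and the LHCB genes were among the first plant genes in which clock control was seen.

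Levels are CPM, the counts per 1000000 of a library's size after scaling by TMM, a method that removes differences in composition between libraries. The libraries held 1833795 to 2109788 counts with dexamethasone and 1633571 to 2196781 in mock. The AP2 transcript stood at 1100.4, 1188 and 1009 CPM with dexamethasone, against 55.7, 60.5 and 78.1 CPM in mock (log2 fold change 4.08 ± 0.15, SE; edgeR adjusted p = 2.8e-13), and the counts do not tell the transgene from the endogenous gene. The meristem genes STM, KNAT1 and CLV1 were detected in all 6 libraries, and so were WUS (7 to 11 counts) and UFO (4 to 13 counts). The stem cell marker CLV3 had no count in any library. A count of 0 allows up to 1.38 to 1.88 CPM (3 counts per library, counting error only). In bulk apices fewer green cells and less RNA per green cell cannot be told apart.

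Most of the photosynthesis genes were lower with dexamethasone, and none was higher. By edgeR's quasi-likelihood test, with p-values adjusted over the 15857 genes tested and a threshold of 0.05, 35 of 47 fell, where 8.02% of all genes tested fell. No member was called higher by edgeR, against 5.86% of all genes. No member was higher at an unadjusted p under 0.05 either. DESeq2 called 34 lower and 0 higher, beside 5.14% and 3.46% of all genes, and limma-voom called 36 lower and 0 higher, beside 7.27% and 5.68%. The log2 fold changes ran from -3.58 for LHCB1.4 to -0.09 for PSAH2, and their median was -0.65, beside 0.0035 for all genes tested. In 44 of 47 genes every dexamethasone library lay below every mock library, as was so for 15.9% of all genes tested. Deeply counted genes are called more often. Among genes averaging 100 CPM or more, 28 of 38 members fell, beside 13.7% of all genes at that level. Together the 47 genes took 1.16 to 1.25% of all counts with dexamethasone and 1.92 to 2.33% in mock. Against a minimum fold of 1.5, 8 members remained called (LHCA1, LHCA4, LHCB1.3, LHCB1.5, LHCB2.3, LHCB3, LHCB5 and PSAN), beside 1.12% of all genes. Leaving out 1 library left between 24 members lower (without Dx5, beside 4.12% of all genes) and 40 (without CT3, beside 12.3%).

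**Figure D1:**
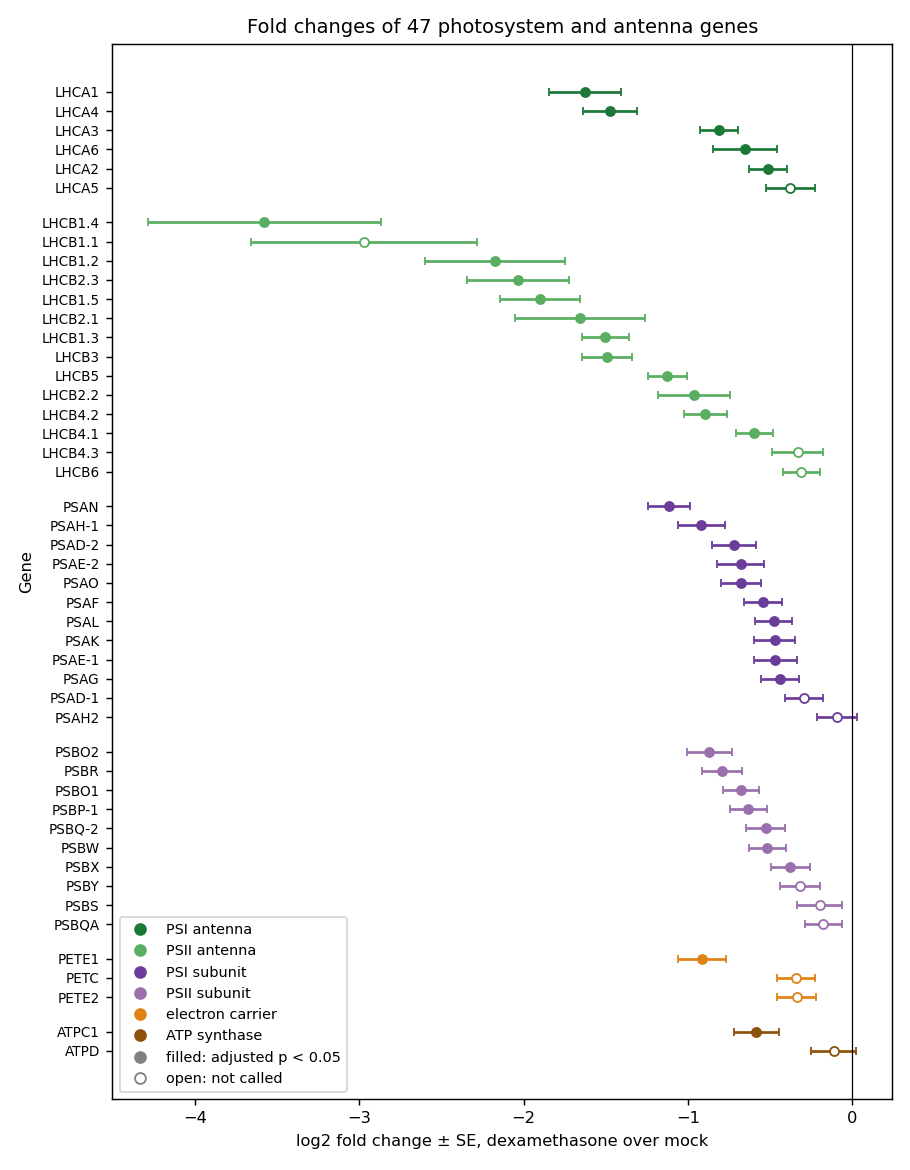
Log2 fold change (x axis, dexamethasone over mock) with its standard error for each of the 47 genes (y axis), grouped and coloured by role, with filled symbols for genes past an adjusted p of 0.05 and open symbols for the others. All 47 points lie left of 0, and the photosystem II antenna genes reach from -0.31 for LHCB6 to -3.58 for LHCB1.4.

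As a group the antenna genes had larger fold changes than the other roles, a difference described here by sums and ratios. The median log2 fold change was -1.30 for antenna genes and -0.52 for the other 27 genes. Not every antenna gene went with this, and LHCA2, LHCA5, LHCB4.3 and LHCB6 changed less than the median of the others. Summed over its 14 genes the photosystem II antenna stood at 3457, 3139 and 2873 CPM with dexamethasone, against 9005, 8227 and 6242 CPM in mock, a ratio of means of 0.403. The 6 photosystem I antenna genes summed to 1664, 1535 and 1397 CPM with dexamethasone, against 3954, 3521 and 2802 CPM in mock, a ratio of 0.447. A few genes dominate both sums. By mock means, LHCB1 genes made up 4771 of 7825 CPM for photosystem II, and LHCA1 with LHCA4 2214 of 3425 CPM for photosystem I. Of the 20 antenna genes 16 fell, 10 of them at least 2-fold, a size of fall that 2.32% of all genes tested had. The ratios of the subunits of the photosystems themselves were nearer to 1. The 12 photosystem I subunits had a ratio of 0.696 (2709.9, 2611 and 2633 CPM with dexamethasone and 4007, 3791 and 3635 CPM in mock), and the 10 photosystem II subunits had a ratio of 0.684 (3672, 3626 and 3589 CPM with dexamethasone and 5500.4, 5072 and 5350.4 CPM in mock). Within these 27 genes other than antenna 19 fell, and PSAN alone by 2-fold or more. A ratio of counts within a library does not depend on the scaling between libraries. The photosystem II antenna held 0.942, 0.866 and 0.800 times the counts of the photosystem II subunits with dexamethasone, against 1.64, 1.62 and 1.17 times in mock, and the groups did not overlap. For photosystem I the same ratio of antenna to subunits was 0.614, 0.588 and 0.530 with dexamethasone and 0.987, 0.929 and 0.771 in mock, again without overlap. These ratios, and all other ratios of counts within a library given below, were chosen after the values were seen and carry no test. How often such ratios fail to overlap for other pairs of genes was not examined.

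**Figure D2:**
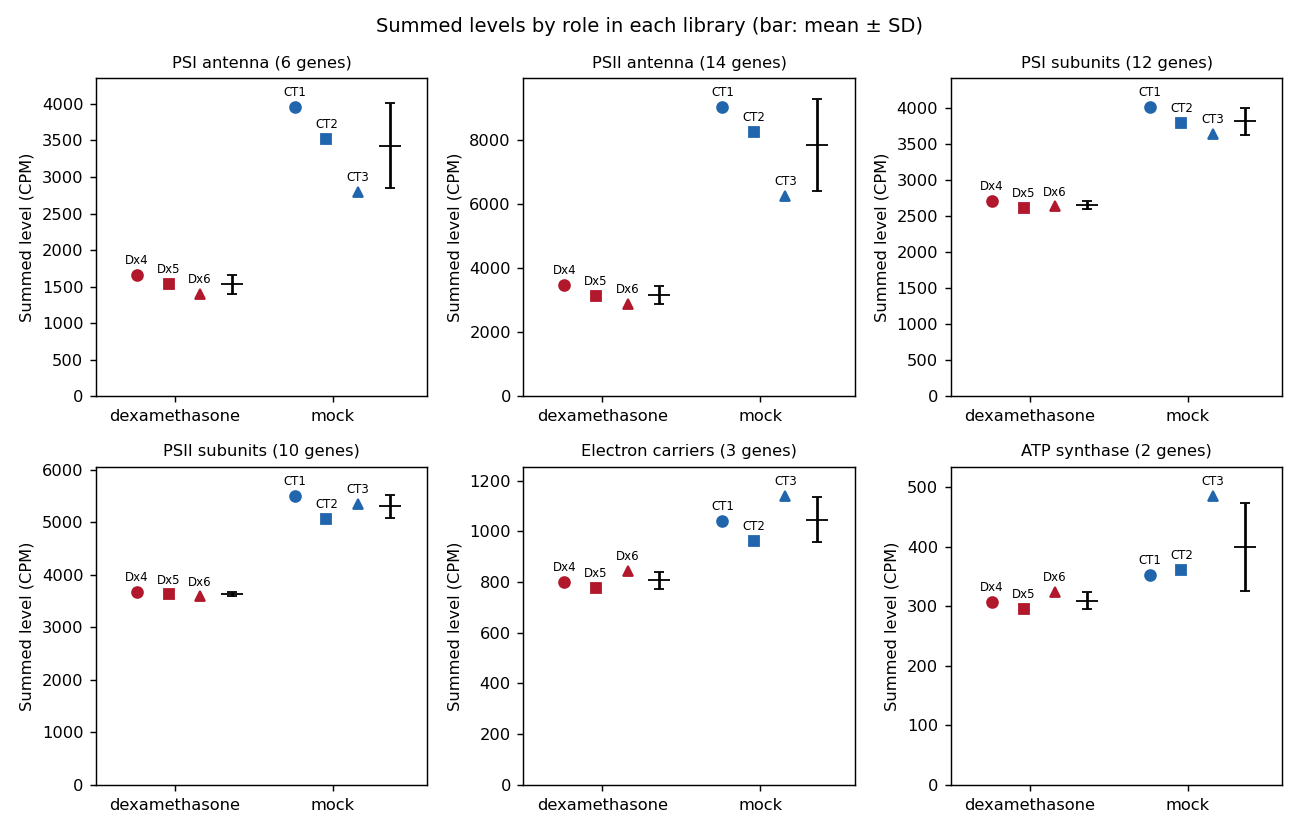
Summed level in CPM (y axis, from 0) of the genes of each role in each library, dexamethasone left and mock right, with the mean and SD of 3 libraries as a bar. In the antenna panels CT3 is the lowest mock library (6242 CPM for photosystem II) and still lies above the highest dexamethasone library (3457 CPM), whereas for the ATP synthase CT3 is the highest.

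LHCB1 genes encode the main protein of the light-harvesting trimers of photosystem II, and 3 of them (LHCB1.4, LHCB1.1 and LHCB1.2) had the largest fold changes among the 47. They lie in 2 clusters. LHCB1.1, LHCB1.2 and LHCB1.3 are neighbours on chromosome 1, and LHCB1.4 and LHCB1.5 on chromosome 2. LHCB1.1 and LHCB1.3 are transcribed away from each other with 1915 bases between their annotated starts, and LHCB1.5 and LHCB1.4 with 1038 bases between. The sequences just upstream of these starts are shown here because the partners of a pair share their surroundings but differ widely in level, together with LHCA4, a strongly lowered gene whose window held several of the motifs searched, and with PSBS, which was not called. Each is the 250 bases before the annotated start, from RefSeq (assembly TAIR10.1), matched by locus, since no source states the build behind the counts. Capitals mark, on either strand, the CCAAT-type motif CCAATC, the I-box core GATAAG, the G-box CACGTG, the evening element AAAATATCT and the CCA1 site AAAAATCT (bound by a clock factor), and no one of these contains another.
LHCB1.3 (chr1:10477635-10477884, plus strand): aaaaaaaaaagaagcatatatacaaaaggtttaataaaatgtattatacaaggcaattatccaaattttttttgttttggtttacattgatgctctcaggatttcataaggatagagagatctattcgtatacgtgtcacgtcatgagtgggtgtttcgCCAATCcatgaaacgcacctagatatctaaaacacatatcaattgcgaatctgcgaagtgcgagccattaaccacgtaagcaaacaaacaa
LHCB1.1 (chr1:10475970-10476219, minus strand): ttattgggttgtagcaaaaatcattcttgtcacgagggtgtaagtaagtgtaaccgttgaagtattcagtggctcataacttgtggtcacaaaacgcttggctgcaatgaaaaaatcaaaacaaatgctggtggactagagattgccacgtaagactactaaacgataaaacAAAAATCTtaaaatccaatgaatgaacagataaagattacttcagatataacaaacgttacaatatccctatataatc
LHCB1.5 (chr2:14523569-14523818, minus strand): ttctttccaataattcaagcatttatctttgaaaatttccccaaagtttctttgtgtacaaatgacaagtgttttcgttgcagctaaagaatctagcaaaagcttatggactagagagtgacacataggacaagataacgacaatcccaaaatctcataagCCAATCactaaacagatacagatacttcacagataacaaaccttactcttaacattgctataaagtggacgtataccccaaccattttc
LHCB1.4 (chr2:14524357-14524606, plus strand): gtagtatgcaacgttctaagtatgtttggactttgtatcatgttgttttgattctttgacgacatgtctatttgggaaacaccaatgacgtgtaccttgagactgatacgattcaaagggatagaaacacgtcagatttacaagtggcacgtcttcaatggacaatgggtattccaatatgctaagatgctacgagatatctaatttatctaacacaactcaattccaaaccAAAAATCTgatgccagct
LHCA4 (chr3:17495034-17495283, minus strand): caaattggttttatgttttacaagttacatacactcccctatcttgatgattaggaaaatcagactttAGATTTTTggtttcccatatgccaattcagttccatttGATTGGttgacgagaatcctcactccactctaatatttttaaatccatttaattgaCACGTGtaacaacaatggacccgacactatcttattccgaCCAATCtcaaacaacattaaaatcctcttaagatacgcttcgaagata
PSBS (chr1:16869971-16870220, plus strand): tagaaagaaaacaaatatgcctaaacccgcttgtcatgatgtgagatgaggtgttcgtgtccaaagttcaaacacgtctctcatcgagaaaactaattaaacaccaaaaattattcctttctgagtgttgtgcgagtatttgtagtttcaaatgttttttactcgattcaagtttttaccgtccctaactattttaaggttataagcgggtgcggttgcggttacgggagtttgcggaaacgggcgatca
LHCB1.3 and LHCB1.5 each hold 1 CCAATC, LHCB1.1 and LHCB1.4 each hold 1 AAAAATCT, LHCA4 holds CCAATC on both strands, 1 G-box and 1 AGATTTTT, and the PSBS window holds none of the 5 motifs.

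Over all 47 upstream windows CCAATC or its reverse complement GATTGG was present in 14 (29.8%), beside 10.2% of the 27443 windows of protein-coding genes. It was found upstream of 10 of the 20 antenna genes and of 4 of the other 27. All 10 antenna genes with it fell, with a median log2 fold change of -1.49, and 6 of the 10 antenna genes without it fell, with a median of -0.89. Those without it included LHCB1.4, LHCB1.1 and LHCB1.2, which had the largest fold changes of the set (log2 -3.58, -2.97 and -2.18). LHCB1.1 counts there as not called by edgeR. In the 27 genes other than antenna the medians ran the opposite way, at -0.34 with the motif and -0.54 without it. The G-box was present in 19.1% of member windows and 6.49% of all windows, and GATAAG or CTTATC in 23.4% and 12.3%. Among antenna genes the median log2 fold change was -1.04 for the 4 with a G-box and -1.31 for the 16 without it. For GATAAG it was -1.26 for 4 genes with it and -1.30 for 16 without it. With either motif 3 of the 4 fell, and without it 13 of the 16. None of these splits was tested. AAAAATCT or AGATTTTT was present in 10.6% and 6.69%, and the evening element (AAAATATCT or AGATATTTT) in 4.25% and 2.36%. TTTGTT or AACAAA, letters bound by AP2, was present in 44.7% of member windows and 55.0% of all windows. These matches describe letters in a window and show no binding.

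LHCB1.3 (AT1G29930) was the most abundant of all 47 transcripts, also per length, at 944 CPM per kb with dexamethasone and 2673 CPM per kb in mock. It fell to 1285, 1160.2 and 1038 CPM with dexamethasone, against 3730.4, 3576 and 2557 CPM in mock (log2 fold change -1.50 ± 0.14, edgeR adjusted p = 7.6e-07). Its partner across the shared upstream region, LHCB1.1 (AT1G29920), stood at 40.0, 28.4 and 21.0 CPM with dexamethasone, against 351, 263 and 86.0 CPM in mock. The groups did not overlap, but CT3 lay far below the other mock libraries, and the edgeR test made no call (log2 fold change -2.97 ± 0.69, adjusted p = 0.0667). Without CT3 the adjusted p was 4.1e-07, and DESeq2 and limma-voom called the gene with all 6 libraries (adjusted p = 9.2e-05 and 0.000473). LHCB1.2 (AT1G29910) had 57.0, 35.9 and 40.5 CPM with dexamethasone, against 296, 198 and 112 CPM in mock (log2 fold change -2.18 ± 0.43, edgeR adjusted p = 0.0294). That call was lost without CT2, Dx5 or Dx6 (adjusted p = 0.0598, 0.0663 and 0.0613).

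On chromosome 2, LHCB1.5 (AT2G34420) fell to 328, 275 and 222 CPM with dexamethasone, against 1304, 1104 and 671 CPM in mock (log2 fold change -1.90 ± 0.25, edgeR adjusted p = 0.00113). Its neighbour LHCB1.4 (AT2G34430) was the scarcest member, with 5, 3 and 2 counts with dexamethasone, against 39, 72 and 15 in mock. This was the largest fold change of the set (log2 -3.58 ± 0.71, edgeR adjusted p = 0.0102), resting on few counts, and the call was lost without Dx5 or Dx6 (adjusted p = 0.0695 and 0.0604). In all 5 genes CT3 was the lowest mock library. LHCB1.3 held 0.750, 0.773 and 0.785 of the LHCB1 counts as a ratio with dexamethasone and 0.654, 0.691 and 0.745 in mock. LHCB1 genes are similar in sequence, and 50-base words shared with other loci of the table made up 20.5% of the LHCB1.1 transcript, 22.015% of LHCB1.3 and 22.3% of LHCB1.5, so the division of reads between copies is uncertain. Among the 5 genes most shared words lie within a chromosome, between LHCB1.1 and LHCB1.3 and between LHCB1.4 and LHCB1.5. In a fit added after the data were seen, with each cluster summed to 1 row, LHCB1.1 to LHCB1.3 had a log2 fold change of -1.59 (edgeR adjusted p = 2.5e-06) and LHCB1.4 with LHCB1.5 had -1.92 (edgeR adjusted p = 0.0012).

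**Figure D3:**
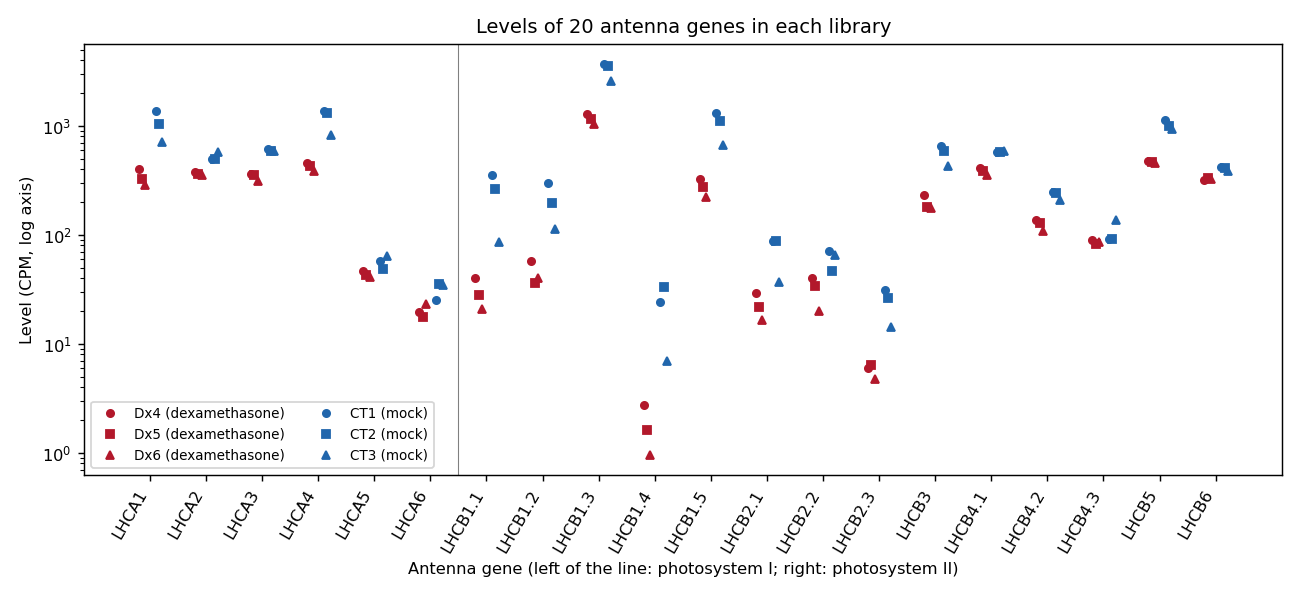
Level in CPM (y axis, log scale) of each of the 20 antenna genes (x axis) in each library, dexamethasone in red on the left of each gene and mock in blue on the right. No red symbol reaches the blue symbols of its gene, and the mock symbols of LHCB1.1 spread widely, from 86.0 to 351 CPM.

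LHCB2 and LHCB3 (AT5G54270) complete the trimers, and LHCB2 is the subunit whose phosphorylation moves antenna between the photosystems. All 3 LHCB2 genes fell. LHCB2.3 (AT3G27690) had 6.03, 6.42 and 4.76 CPM with dexamethasone, against 31.3, 26.1 and 14.4 CPM in mock (log2 fold change -2.03 ± 0.31, edgeR adjusted p = 0.000176). AT3G27700 shares 38.6% of the LHCB2.3 words and is annotated on the opposite strand. LHCB2.1 (AT2G05100) and LHCB2.2 (AT2G05070) share 22.7% and 28.2% of their words with each other. LHCB2.1 had 29.0, 21.9 and 16.7 CPM with dexamethasone and 88.3, 88.5 and 37.2 CPM in mock, and its call was lost without CT1, CT2, Dx5 or Dx6 (adjusted p = 0.119, 0.054, 0.108 and 0.0863). LHCB2.2 had 40.6, 33.7 and 20.006 CPM with dexamethasone and 70.8, 46.8 and 66.0 CPM in mock, where CT2 was the lowest. The sum of these 2 genes had a log2 fold change of -1.30 (edgeR adjusted p = 0.000715). LHCB3 fell to 232, 181 and 177 CPM with dexamethasone, against 649, 583 and 428 CPM in mock (log2 fold change -1.49 ± 0.15, edgeR adjusted p = 3.1e-06).

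The monomeric antenna proteins, which connect the trimers to the photosystem II core, differed among themselves. LHCB5 (AT4G10340), also called CP26, fell to 476, 468 and 459 CPM with dexamethasone, against 1134, 994 and 934 CPM in mock, more than 2-fold and with little spread in the dexamethasone libraries (log2 fold change -1.13 ± 0.12, edgeR adjusted p = 2.0e-06). Of the genes for CP29, LHCB4.2 (AT3G08940) fell to 138, 127 and 109.6 CPM with dexamethasone, against 246, 240.2 and 211 CPM in mock (log2 fold change -0.89 ± 0.13). LHCB4.1 (AT5G01530) fell to 412, 386 and 354 CPM with dexamethasone, against 570.0, 576 and 594 CPM in mock (log2 fold change -0.60 ± 0.11). For LHCB4.2 and LHCB4.1 edgeR gave adjusted p-values of 9.9e-05 and 0.00132. The third CP29 gene, LHCB4.3 (AT2G40100), stood at 89.3, 81.9 and 85.7 CPM with dexamethasone and 92.1, 91.7 and 138 CPM in mock and was not called (log2 fold change -0.33 ± 0.16, edgeR adjusted p = 0.178). Only CT3 stood well above the dexamethasone libraries for this gene. LHCB6 (AT1G15820), also called CP24, was not called either, at 321, 331 and 325 CPM with dexamethasone and 418, 407 and 386 CPM in mock (log2 fold change -0.31 ± 0.11, edgeR adjusted p = 0.0741, and 0.00369 without CT3). The LHCB1 genes summed to 5.33, 4.53 and 4.07 times the LHCB6 counts with dexamethasone, against 13.6, 12.7 and 8.89 times in mock.

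In the photosystem I antenna the 4 main proteins sit in pairs, LHCA1 (AT3G54890) with LHCA4 (AT3G47470) and LHCA2 (AT3G61470) with LHCA3 (AT1G61520), and the transcripts of the first pair had the larger fold changes. LHCA1 fell to 401, 325 and 288 CPM with dexamethasone, against 1371, 1044 and 716 CPM in mock (log2 fold change -1.63 ± 0.22, edgeR adjusted p = 0.000691), and LHCA4 fell to 453, 428 and 382 CPM with dexamethasone, against 1383, 1307 and 822 CPM in mock (log2 fold change -1.48 ± 0.16, edgeR adjusted p = 2.2e-05). For both genes CT3 was the lowest mock library. LHCA3 fell to 363, 356 and 311 CPM with dexamethasone, against 620.1, 590.4 and 594 CPM in mock (log2 fold change -0.81 ± 0.12, edgeR adjusted p = 7.8e-05). LHCA2 had 379.8, 366 and 352 CPM with dexamethasone and 498, 495 and 571 CPM in mock (log2 fold change -0.51 ± 0.12, edgeR adjusted p = 0.00489, and 0.0609 without Dx6). In mock the LHCA2 level was highest in CT3, the reverse of LHCA1 and LHCA4. Within a library the counts of LHCA1 and LHCA4 together were 1.15, 1.04 and 1.01 times those of LHCA2 and LHCA3 with dexamethasone, against 2.46, 2.17 and 1.32 times in mock. The groups did not overlap, and CT3 lay nearer to the dexamethasone libraries than to CT2. LHCA5 (AT1G45474) and LHCA6 (AT1G19150), scarce proteins that link photosystem I to the NDH complex, had low transcript levels. LHCA6 had 19.7, 17.7 and 23.3 CPM with dexamethasone and 25.1, 35.3 and 34.4 CPM in mock (edgeR adjusted p = 0.028), a call lost without CT2, Dx4 or Dx5 (adjusted p = 0.14, 0.099 and 0.145) and by DESeq2 (adjusted p = 0.131). LHCA5, at 46.6, 42.8 and 41.4 CPM with dexamethasone and 57.0, 49.1 and 63.7 CPM in mock, was not called (edgeR adjusted p = 0.104).

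Of the 12 photosystem I subunit genes 10 fell. PSAN (AT5G64040), a lumenal subunit involved in the docking of plastocyanin, fell most, to 122, 114 and 109 CPM with dexamethasone, against 281, 221 and 246 CPM in mock (log2 fold change -1.12 ± 0.13, edgeR adjusted p = 7.9e-06). PSAF (AT1G31330), which also binds plastocyanin and was the most abundant of the 12, had 527, 459 and 479 CPM with dexamethasone and 762, 712 and 660.4 CPM in mock (log2 fold change -0.54 ± 0.12, edgeR adjusted p = 0.0032, and 0.0516 without Dx5). Within a library PSAN had 0.231, 0.248 and 0.228 times the counts of PSAF with dexamethasone, against 0.368, 0.310 and 0.373 times in mock, without overlap.

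Several of these subunits are encoded by a pair of genes, and in some pairs 1 copy was called and the other was not, a difference between copies that was not itself tested. PSAH, at the docking site of the mobile antenna, is one. PSAH-1 (AT3G16140) fell to 48.8, 43.3 and 51.4 CPM with dexamethasone, against 81.4, 87.1 and 102 CPM in mock (log2 fold change -0.92 ± 0.14, edgeR adjusted p = 0.000185). PSAH2 (AT1G52230), the more abundant copy, stood at 204, 186 and 192 CPM with dexamethasone and 196, 202 and 222 CPM in mock, with overlapping groups and no call (log2 fold change -0.09 ± 0.12, edgeR adjusted p = 0.69). PSAH-1 thus had 0.239, 0.233 and 0.268 times the PSAH2 counts with dexamethasone, against 0.415, 0.432 and 0.460 times in mock. Words shared with genes annotated on the opposite strand made up 49.2% of PSAH-1 and 19.1% of PSAH2, and whether counting used the strand is not stated. PSAD, which docks ferredoxin on the stromal side, is encoded by PSAD-1 (AT4G02770) and PSAD-2 (AT1G03130). PSAD-2 fell to 69.6, 80.3 and 77.2 CPM with dexamethasone, against 116, 137 and 120.5 CPM in mock (log2 fold change -0.72 ± 0.13, edgeR adjusted p = 0.000876). PSAD-1, at 287, 292 and 282 CPM with dexamethasone and 388, 334 and 333 CPM in mock, was not called (edgeR adjusted p = 0.108, and 0.00745 without CT3). The PSAE genes, for another stromal subunit at the ferredoxin site, both fell, by log2 fold changes of -0.68 ± 0.14 for PSAE-2 (AT2G20260) and -0.47 ± 0.13 for PSAE-1 (AT4G28750) (edgeR adjusted p = 0.00273 and 0.0214). The PSAE-1 call was lost without CT2, Dx4, Dx5 or Dx6, with adjusted p = 0.121, 0.143, 0.0858 and 0.0733.

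**Figure D4:**
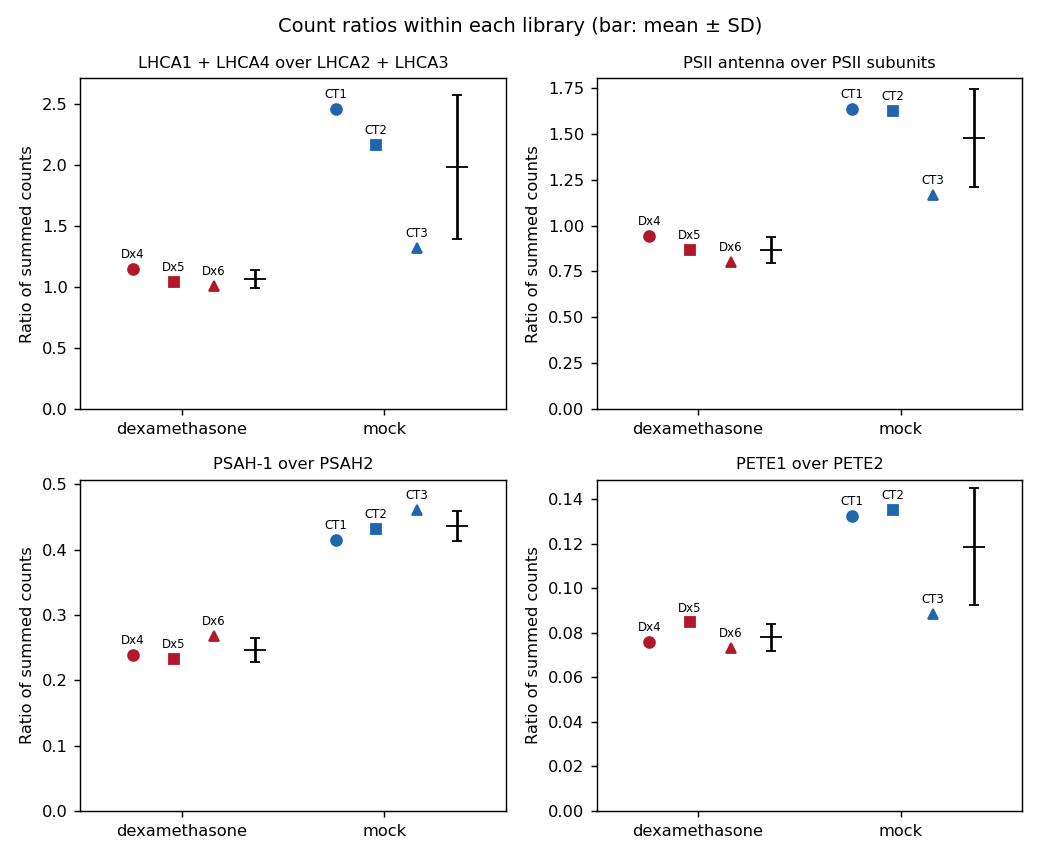
Ratios of summed counts within each library (y axes, from 0), dexamethasone left and mock right, with the mean and SD of 3 libraries as a bar. In all 4 panels the dexamethasone libraries lie below the mock libraries; CT3 is the mock library nearest to them except for PSAH-1 over PSAH2, where it is the farthest, at 0.460.

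The remaining 4 photosystem I genes fell as well. PSAO (AT1G08380), which with PSAH and PSAL (AT4G12800) lies on the side where the mobile antenna binds, stood at 315, 283 and 292 CPM with dexamethasone, against 519, 489 and 415 CPM in mock (log2 fold change -0.68 ± 0.12, edgeR adjusted p = 0.000699). PSAL stood at 436, 448 and 440.1 CPM with dexamethasone, against 596, 609.7 and 639 CPM in mock. PSAK (AT1G30380) and PSAG (AT1G55670), related membrane subunits near the antenna belt, had means of 210.5 ± 8.11 and 262 ± 3.58 CPM with dexamethasone and 292 ± 36.2 and 356 ± 14.1 CPM in mock (SD, n = 3 each). The log2 fold changes of PSAL, PSAK and PSAG were -0.48, -0.47 and -0.44, with edgeR adjusted p of 0.00582, 0.0142 and 0.0124. All 3 calls were lost without Dx4, Dx5 or Dx6. The adjusted p-values were then 0.0551, 0.0501 and 0.0587 for PSAL, and 0.0812, 0.0744 and 0.0886 for PSAG. For PSAK they were 0.0603, 0.0842 and 0.106, and 0.0745 without CT2.

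Among the 10 photosystem II genes 7 fell, none by as much as 2-fold. PSBO, PSBP and PSBQ form the lumenal cap of the oxygen-evolving complex. PSBO1 (AT5G66570), the most abundant of them, fell to 711, 718 and 737 CPM with dexamethasone, against 1190.0, 1108 and 1170.1 CPM in mock (log2 fold change -0.68 ± 0.11, edgeR adjusted p = 0.000282). The second gene, PSBO2 (AT3G50820), fell to 98.6, 95.8 and 83.4 CPM with dexamethasone, against 163, 149.9 and 193 CPM in mock (log2 fold change -0.87 ± 0.14, edgeR adjusted p = 0.000201), and the ratio of PSBO2 to PSBO1 counts overlapped between the groups. PSBP-1 (AT1G06680) fell to 588, 559 and 559.7 CPM with dexamethasone, against 934, 821 and 892 CPM in mock (log2 fold change -0.63 ± 0.11). Of the PSBQ genes, PSBQ-2 (AT4G05180) fell by a log2 fold change of -0.53 ± 0.12 (edgeR adjusted p = 0.00421, and 0.0609 without Dx6), and PSBQA (AT4G21280), at 293, 291 and 303 CPM with dexamethasone and 328, 319.5 and 353 CPM in mock, was not called (edgeR adjusted p = 0.353).

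PSBR (AT1G79040), which helps to anchor the oxygen-evolving complex, fell to 471, 462 and 449 CPM with dexamethasone, against 899, 797 and 698 CPM in mock (log2 fold change -0.79 ± 0.12, edgeR adjusted p = 0.000149). PSBW (AT2G30570), a small subunit that stabilises the complex of photosystem II with its antenna, fell by a log2 fold change of -0.52 ± 0.11 (edgeR adjusted p = 0.00393, and 0.0594 without Dx6). The small subunit genes PSBX (AT2G06520) and PSBY (AT1G67740) had means of 291 ± 4.88 and 135 ± 3.28 CPM with dexamethasone and 378 ± 37.7 and 169 ± 14.8 CPM in mock (SD, n = 3 each). PSBX was called (edgeR adjusted p = 0.0378), but not without CT1, CT2, Dx4, Dx5 or Dx6 (adjusted p = 0.0889, 0.0839, 0.133, 0.175 and 0.156) or by DESeq2 (adjusted p = 0.0521). PSBY was not called (adjusted p = 0.0968, and 0.0497 without CT1). PSBS (AT1G44575), the sensor of lumen acidity that triggers the harmless release of excess light energy, stood at 373, 333 and 365 CPM with dexamethasone and 389.6, 336 and 504 CPM in mock. Its groups overlapped, CT3 was its highest library, and it was not called (log2 fold change -0.20 ± 0.14, edgeR adjusted p = 0.385). LHCB1 counts summed to 4.59, 4.50 and 3.62 times the PSBS counts with dexamethasone, against 14.7, 15.4 and 6.82 times in mock.

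Of the electron carriers, the minor plastocyanin gene PETE1 (AT1G76100) fell to 37.8, 41.2 and 39.1 CPM with dexamethasone, against 82.0, 77.5 and 64.2 CPM in mock (log2 fold change -0.92 ± 0.15, edgeR adjusted p = 0.000241). The major one, PETE2 (AT1G20340), stood at 498, 486 and 534 CPM with dexamethasone and 619, 573 and 725 CPM in mock and was not called (log2 fold change -0.34 ± 0.12, edgeR adjusted p = 0.0664), though it was without CT1 (0.0478) or CT3 (0.0474). PETE1 had 0.0760, 0.0847 and 0.0732 times the PETE2 counts with dexamethasone, against 0.133, 0.135 and 0.0885 times in mock. PETC (AT4G03280), the Rieske protein of the cytochrome complex, had 266, 249 and 269.6 CPM with dexamethasone and 338, 309 and 349 CPM in mock, just short of the threshold (edgeR adjusted p = 0.0526, and 0.0127 without CT3). In the ATP synthase, ATPC1 (AT4G04640), the regulatory gamma subunit, fell to 155, 151 and 164 CPM with dexamethasone, against 209, 209 and 287 CPM in mock (log2 fold change -0.58 ± 0.14, edgeR adjusted p = 0.00663, and 0.0601 without Dx5). ATPD (AT4G09650), the delta subunit, stood at 153, 144 and 159.6 CPM with dexamethasone and 144, 151 and 198 CPM in mock, with overlapping groups and no call (edgeR adjusted p = 0.656).

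Not all mock libraries were alike. The median ratio of the highest to the lowest mock library over the 47 genes was 1.27, beside 1.12 among the dexamethasone libraries. CT3 was the lowest mock library for 20 of the 35 called genes and the highest for 7. Among the 12 genes that were not called it was the lowest for 3 and the highest for 9. These counts and median ratios were not taken over all genes, so they are not shown to be particular to the members. Over all genes tested, leaving out CT3 gave 12.3% called lower and 11.3% higher, beside 8.02% and 5.86% with every library. Clock genes varied in the same libraries. A list of 8 dawn-phased genes (LNK1, LNK2, CCA1, LHY, CDF1, PRR9, RVE1 and RVE8) summed to 61.9, 53.5 and 41.4 CPM with dexamethasone, against 165, 121 and 73.5 CPM in mock, while LHCB1 summed to 1713, 1501 and 1321 CPM with dexamethasone and 5706, 5174 and 3434 CPM in mock. CT3 was the lowest mock library in both sums and lay above all dexamethasone libraries in both. LNK1 and LNK2 made up most of the dawn-phased sum. Of the 3 dawn-phased genes tested LNK1 fell (21.7 ± 7.13 CPM with dexamethasone, 50.5 ± 11.5 CPM in mock, edgeR adjusted p = 0.000907). LNK2 (23.6, 24.6 and 19.1 CPM with dexamethasone, 63.3, 50.9 and 21.9 CPM in mock) overlapped between the groups. Neither LNK2 nor RVE1 was called (edgeR adjusted p = 0.117 and 0.154). The core clock gene CCA1 had 2, 1 and 1 counts with dexamethasone and 14, 11 and 4 in mock, too few to be tested. LHY, RVE8, PRR9 and CDF1 were also untested, and their groups overlapped. The 6 evening-phased genes (TOC1, GI, PRR5, ELF4, LUX and ELF3) summed to 600.1, 545 and 514 CPM with dexamethasone and 608, 757 and 728 CPM in mock. These sums did not overlap either, and the log2 fold change was negative in 5 genes and positive in 1. GI was lower and ELF4 higher (edgeR adjusted p = 0.00846 and 0.0182), and the other 4 were not called. PRR5 had 69.0, 48.2 and 31.9 CPM with dexamethasone and 125, 103 and 61.4 CPM in mock, with CT3 again the lowest mock library. Its adjusted p was 0.138 by edgeR and 0.0205 by limma-voom. The GI call was lost without CT2, Dx5 or Dx6 and the ELF4 call without CT1, Dx4, Dx5 or Dx6 (adjusted p up to 0.0859 and 0.0967). The part of clock phase or collection time in the fall of the photosynthesis genes was not tested.

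**Figure D5:**
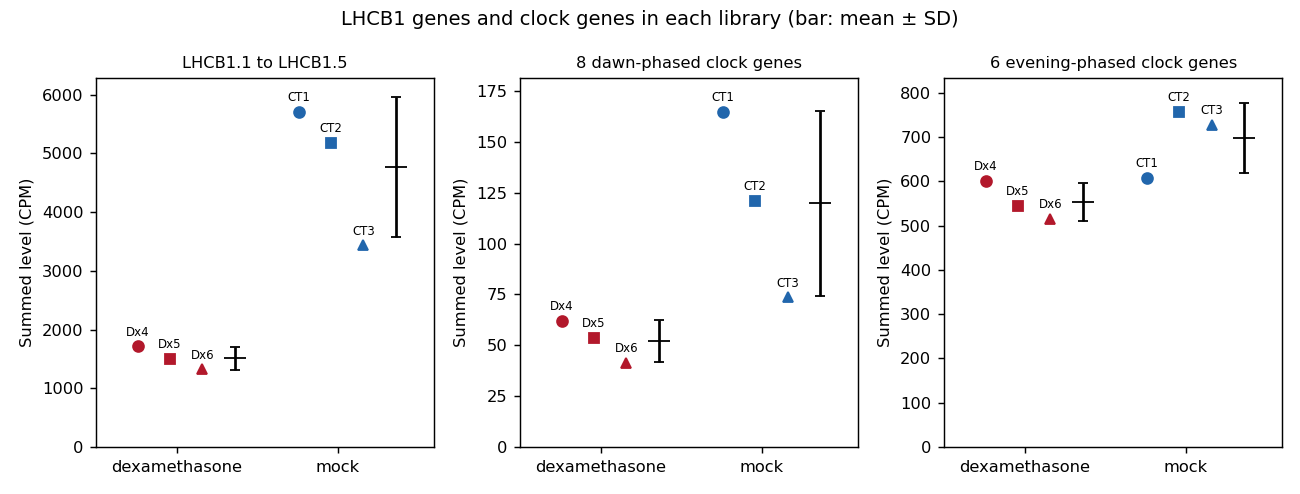
Summed level in CPM (y axes, from 0) of the 5 LHCB1 genes, 8 dawn-phased clock genes and 6 evening-phased clock genes in each library, dexamethasone left and mock right, with the mean and SD of 3 libraries as a bar. CT1 is the highest mock library in the first 2 panels and the lowest in the third, at 608 CPM.

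Markers of other tissues gave the following values. The 9 floral organ genes (AP3, PI, AG, SEP1, SEP2, SEP3, AP1, CRC and SPL/NZZ) summed to 1124, 1096 and 1128 CPM with dexamethasone and 1265, 1447 and 1389 CPM in mock. All 9 were detected in every library, and SEP3 and AP1 were lower while the other 7 were not called. Of the 6 vascular genes (SUC2, APL, IRX3, IRX1, VND7 and XCP1) the phloem sucrose transporter SUC2 was lower and 4 others tested were not called (sum 57.5, 53.5 and 70.5 CPM with dexamethasone and 55.1, 75.2 and 99.1 CPM in mock). The SUC2 call was lost without CT2 or Dx5 (edgeR adjusted p up to 0.0782). VND7, which specifies xylem vessels, had at most 4 counts in a library. The 6 stomatal genes (FAMA, KAT1, MYB60, SPCH, MUTE and EPF1) summed to 37.8, 30.5 and 30.5 CPM with dexamethasone and 30.7, 25.7 and 39.5 CPM in mock, with overlapping groups and neither of the 2 tested genes called. The 6 meristem genes (STM, WUS, CLV3, CLV1, KNAT1 and UFO) summed to 277, 260.1 and 279.6 CPM with dexamethasone, against 235, 198 and 205 CPM in mock. CLV1 was higher, STM and KNAT1 were not called, and WUS, CLV3 and UFO had too few counts to be tested. The part of tissue composition in the fall of the photosynthesis genes was not tested.

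Many other nuclear genes of the light reactions were lower as well. Of a list of 36, 34 were tested (PSBP2 and ELIP2 had too few counts), and 21 fell while 1 was higher, beside 8.02% and 5.86% of all genes tested. Their median log2 fold change was -0.50. Some genes that deliver antenna proteins to the membrane were among them, while LTD of the same list was not called (log2 fold change -0.20 ± 0.29, edgeR adjusted p = 0.732). CPSRP43, a part of the chloroplast signal recognition particle that carries LHC proteins (cpSRP43, listed as CAO in RefSeq), fell to 67.1 ± 10.5 CPM with dexamethasone, against 134 ± 9.69 CPM in mock (log2 fold change -0.99 ± 0.14, edgeR adjusted p = 7.6e-05). The thylakoid insertase gene ALB3 and the chlorophyll b synthase gene CAO (CH1 in RefSeq) had log2 fold changes of -0.65 ± 0.14 and -0.90 ± 0.15, with edgeR adjusted p of 0.0031 and 0.000419. The light-harvesting regulators STN7, the kinase that phosphorylates LHCB proteins, and VDE, the violaxanthin de-epoxidase, had log2 fold changes of -1.12 ± 0.20 and -0.87 ± 0.16 (edgeR adjusted p = 0.000743 and 0.000885). PGRL1A of cyclic electron flow and the leaf ferredoxin gene FD2 had -0.72 ± 0.13 and -0.58 ± 0.12 (edgeR adjusted p = 0.0007 and 0.0033). The one gene that rose was ELIP1, an antenna relative induced by light stress, with 42.7, 36.4 and 54.8 CPM with dexamethasone, against 26.3, 18.8 and 14.9 CPM in mock (log2 fold change 1.2 ± 0.21, edgeR adjusted p = 0.000567). The number of falls in this list depended on single libraries and was 13 without CT2, 11 without Dx4, 10 without Dx5 and 12 without Dx6. No fall in it passed against a minimum fold of 1.5.

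GLK1 and GLK2, the transcription factors that act on antenna genes, had fold changes of opposite sign. GLK2 had 3, 9 and 13 counts with dexamethasone, against 35, 26 and 23 in mock (log2 fold change -1.73 ± 0.39, edgeR adjusted p = 0.00566), and GLK1 had 85, 114 and 115 with dexamethasone, against 44, 73 and 93 in mock (log2 fold change 0.62 ± 0.17, edgeR adjusted p = 0.0187). The GLK1 call was lost without CT1, CT2, Dx5 or Dx6, with an adjusted p of up to 0.122 without Dx5, and DESeq2 did not make it with all 6 libraries (adjusted p = 0.0657).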

How the data were processed

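The authors deposited 1 table of unnormalized read counts per locus for all 6 libraries, made by HTSeq according to its name. The submitters' processing notes list TopHat, Bowtie, RSEM and Cufflinks with no version or role. The library kit was a stranded one for mRNA, per the labels' protocols. No source used here states how strand was counted, the build, the annotation or a read filter. Besides 28775 loci there were 3 blank lines, left out. CT columns were taken as mock and Dx columns as dexamethasone. The Dx numbers match no title, so columns were tied to groups only.

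The test was the two-sided quasi-likelihood test of edgeR 4.0.16 (R 4.3.3) with robust estimates and TMM scaling, on genes that filterByExpr kept at a minimum count of 10, with Benjamini-Hochberg adjustment over 15857 genes. An SE is the size of the log2 fold change over the square root of F. Floors cover counting error only. Alternatives used limma 3.58.1 and DESeq2 1.42.0, other scalings, filters and thresholds, similar genes summed (LHCB1.1 to LHCB1.4, and LHCB2.1 with LHCB2.2, since a gene with over 20% of its 50-base words in other members was joined to every member sharing any word with it), and leaving out each library. Summing by chromosome cluster instead was added after the data were seen, because the first sum left LHCB1.5 out. The procedure was tested on simulated data. Lengths, names and sequences came from RefSeq (TAIR10.1), where all 47 members had a row. Per-length levels use the longest annotated transcript. The naming rule took AP2, each called member, the most and least abundant member of each role, the 8 smallest p-values of the list of other photosynthesis genes, and GLK1 and GLK2. Other genes, the members not called included, were named after their values were seen. Members, lists and rules were chosen with earlier results of these data known.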

Additional observations from a re-analysis of the deposited data

How the results depend on the processing

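The number of the 47 genes called lower was 34 to 40 under each other scaling, filter, tool or threshold tried, apart from a minimum fold of 1.5, which left 8, and it was 24 to 40 when 1 library was left out. None was called higher under any of these. In the list of 36 other photosynthesis genes 21 were lower. A minimum fold of 1.5 left 0 there, and leaving out 1 library left 10 (without Dx5, beside 4.12% of all genes) to 25 (without CT3, beside 12.3%). The number called higher in that list was 1, and it was 2 with no filter beyond 1 count, which also tests PSBP2 and ELIP2, and 1 to 2 when 1 library was left out. Single values reversed without CT3 for ATPD (log2 fold change 0.044, with a range of -0.20 to 0.044 when 1 library was left out) and LTD (0.17, range -0.50 to 0.17), neither of them called with all 6 libraries, and the cause was not tested. Of the 35 calls, 21 held whichever library was left out. No paired analysis was possible because the numbers of the dexamethasone columns match no replicate number in the labels. Genes of a few counts, such as LHCB1.4, are limited by depth.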

Other observations

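Loci with the chloroplast genome prefix ATCG, which include genes for the photosystem reaction centres, were counted in these libraries made for poly(A) RNA. Of 133 such loci 12 were tested, and 2 were called by edgeR, as higher, beside 5.86% of all genes tested. The log2 fold change was positive in 11 of the 12, and the median was 0.78. The summed level of all 133 loci was 429.6, 416 and 277 CPM with dexamethasone, against 209.8, 279 and 179.5 CPM in mock, and the groups overlapped.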
